A study of Mus musculus with 6 samples.

Results

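The unfolded protein response is the set of signals a cell sends when misfolded proteins accumulate in the endoplasmic reticulum (ER). Its genes are represented here by 10 genes, chosen by symbol from the 19386 genes of the authors' deposited table. They are the ER stress sensors Ern1 (the protein IRE1), Eif2ak3 (PERK) and Atf6, the transcription factors Xbp1 and Ddit3 (CHOP), the ER chaperones and folding enzymes Hspa5 (BiP), Hsp90b1 (GRP94), Dnajb9 (ERdj4) and Pdia4 (ERp72), and Herpud1, which acts in ER-associated degradation. All 10 were listed and all 10 had an adjusted p-value. The rule used symbols and no measured value, though it was written with earlier results of these data known, and none failed the authors' filter on low counts, which left 12082 genes tested.

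RNA sequencing was carried out on macrophages grown from the bone marrow of wild-type C57BL/6 mice that had been exposed either to cigarette smoke (3 libraries) or to room air (3 libraries). Bone marrow-derived macrophages arise from marrow cells cultured with L929-cell supernatant, a source of the macrophage growth factor CSF1, and both groups were harvested on day 11. Exposure thus took place in the animal, and the cells were then grown outside it. The labels used here give neither the age and sex of the mice nor the length of exposure, and they number the libraries within a group without stating that each number is a separate mouse, so p-values measure the spread between libraries, which may be technical.

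The 3 sensors sit in the ER membrane. Active IRE1 cuts a short intron out of the Xbp1 messenger RNA, which shifts the reading frame and yields the transcription factor XBP1s. PERK phosphorylates the initiation factor eIF2α, which lowers general translation and lets ATF4 and then CHOP be made, and ATF6 is cut by Golgi proteases into a transcription factor. In textbook accounts ATF6 and XBP1s raise BiP, GRP94, ERdj4, ERp72 and HERPUD1, so these transcripts are commonly read as output of the response. Differentiated macrophages secrete large amounts of protein such as lysozyme and carry this machinery at rest.

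The sequence that most directly reports the IRE1 branch is the Xbp1 intron, shown because its retention was measured in each library. It lies on the plus strand at chr11:5524278-5524303 (GRCm38), 26 bases inside exon 4 of 5 and inside the coding sequence, at bases 814 to 839 of the 2129-base transcript Xbp1-201. In the unspliced form below the removed bases are in capitals, with 25 bases of exon on each side, and the second form is the product after removal.
Xbp1 unspliced: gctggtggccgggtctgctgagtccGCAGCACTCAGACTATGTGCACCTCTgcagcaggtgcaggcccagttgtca
Xbp1 spliced: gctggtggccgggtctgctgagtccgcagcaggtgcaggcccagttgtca
The intron begins with GC and ends with CT and is not an intron of the GENCODE annotation. Its boundaries can be moved by up to 6 bases to the right without changing the product, so the position given is the one in the authors' deposited JuncBASE table. That table names neither a gene nor a strand for this event, and both were taken from the annotation. The IRE1 recognition letters CNGCAGN, searched on the transcript's own strand, began at 7 positions of Xbp1-201, of which those at bases 812 and 838 span the ends of the intron. The reading frame from the annotated start codon encoded 267 residues in the unspliced form and 371 in the spliced form.

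Expression was available as group means of size-factor-normalized counts in the authors' deposited table, with no value per library, so no mean below has an SD. The log2 fold changes (cigarette smoke over room air), standard errors (SE) and p-values are those of the authors' DESeq2 fit. It covered 24 libraries, 18 of them from outside the 2 groups, so the SE and p-values also draw on the spread among those 18. The 95% intervals were computed here from the deposited fold change and SE.

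By the authors' deposited table none of the 10 genes was called at an adjusted p of 0.05, against 7.69% of all genes tested, and none was called with the trend of fold changes in GC content and transcript length removed, when 1.27% of all genes were. Their median log2 fold change was -0.11, beside -0.003 for all genes tested, with 4 genes above 0 and 6 below. With that trend removed the median was -0.07 and 5 of the 10 were above 0. At an unadjusted p under 0.05 there were 3 of the 10 (Hsp90b1, Hspa5 and Atf6), all with a lower mean after smoke, against 22.8% of all genes in either direction and 10.8% in that direction. All 10 fold changes lay between the 5th and 95th percentiles of the 9021 genes whose mean was 50 or more normalized counts, which were -0.51 and 0.55.

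Levels in room air were compared between genes per kilobase of the longest annotated transcript. Hsp90b1 stood at 1261 and Hspa5 at 1111 normalized counts per kilobase, followed by Xbp1 at 578 and Pdia4 at 247. Atf6 (178), Ddit3 (176), Herpud1 (130) and Dnajb9 (114) formed the middle, and Ern1 (56.1) and Eif2ak3 (54.0) were lowest. With no spread over libraries for these means, whether neighbours in this order differ cannot be stated.

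**Figure D1:**
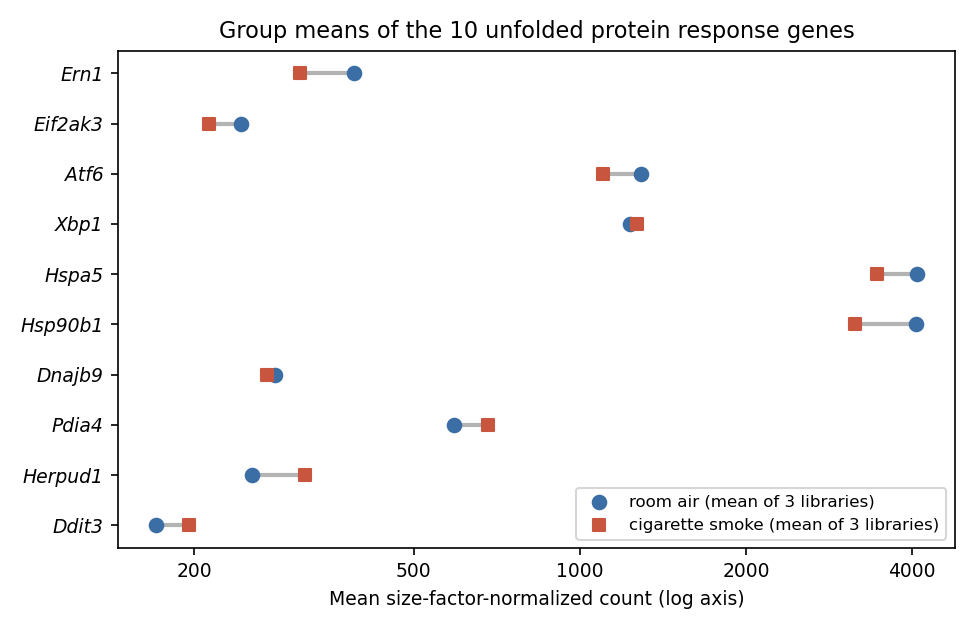
Mean size-factor-normalized count (log axis) of each of the 10 genes in the room air group (circles) and the cigarette smoke group (squares), each the authors' mean of 3 libraries with no error available. Hspa5 (4080 in room air) and Hsp90b1 (4064) lie highest, and Xbp1 and Dnajb9 have nearly overlapping marks.

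Among the sensors, Ern1 (ENSMUSG00000020715.9, chr11:106394650-106487852, minus strand; GRCm38 here and below), the kinase and endonuclease that cuts Xbp1 messenger RNA, had a mean of 389.7 normalized counts in room air and 311.5 after smoke, per the authors' deposited table. Its log2 fold change was -0.33 (SE 0.20, 95% interval -0.73 to 0.07, DESeq2 adjusted p = 0.344). Eif2ak3 (ENSMUSG00000031668.14, chr6:70844515-70905245, plus strand), the kinase that phosphorylates eIF2α, had means of 243.7 and 212.5, with a log2 fold change of -0.18 (SE 0.15, DESeq2 adjusted p = 0.524). Atf6 (ENSMUSG00000026663.6, chr1:170704674-170867771, minus strand), the membrane-bound precursor of a transcription factor, had means of 1293 and 1102 and a log2 fold change of -0.23 (SE 0.11, 95% interval -0.44 to -0.02, DESeq2 adjusted p = 0.168). All 3 point estimates were below 0 and none passed the threshold. That of Atf6 did not keep its sign once the trend of fold changes with GC content and transcript length was removed (0.0071).

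Xbp1 (ENSMUSG00000020484.18, chr11:5520659-5525893, plus strand), the transcript that IRE1 processes, had nearly the same total level in both groups, with a deposited mean of 1231 in room air and 1267 after smoke. Its log2 fold change was 0.04 (SE 0.14, DESeq2 adjusted p = 0.898), and its 95% interval of -0.23 to 0.32 corresponds to folds of 0.855 to 1.25. After removal of the GC content and length trend the estimate was -0.14 (adjusted p = 0.811 from the deposited SE of DESeq2).

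The abundant ER chaperones had the lowest adjusted p-values of the 10. Hspa5 (ENSMUSG00000026864.13, chr2:34771970-34777547, plus strand), the main HSP70 chaperone of the ER, had a deposited mean of 4080 in room air and 3457 after smoke and a log2 fold change of -0.24 (SE 0.09, adjusted p = 0.0821 by DESeq2). Hsp90b1 (ENSMUSG00000020048.13, chr10:86690209-86705509, minus strand), the HSP90 of the ER, had means of 4064 and 3158 and a log2 fold change of -0.36 (SE 0.13, 95% interval -0.63 to -0.10, DESeq2 adjusted p = 0.0696). The means after smoke differed from those in room air by -15.3% and -22.3%, and both genes passed at an adjusted p of 0.1, which 12.8% of all genes did. With the trend in GC content and length removed the estimates were -0.14 and -0.23, with adjusted p-values of 0.598 and 0.554 from the deposited DESeq2 standard errors. Hsp90b1 overlaps 2 short genes on its own strand, Gm15344 and Gm25745, and the pseudogene 1810014B01Rik on the opposite strand. How the authors assigned shared reads, and whether by strand, is not given in the sources used here.

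Dnajb9 (ENSMUSG00000014905.4, chr12:44205559-44210326, minus strand), a co-chaperone of BiP that is induced through XBP1s, had a deposited mean of 280.1 in room air and 271.0 after smoke, and its log2 fold change was -0.04 (SE 0.11, 95% interval -0.26 to 0.18, DESeq2 adjusted p = 0.886). Pdia4 (ENSMUSG00000025823.9, chr6:47796141-47813430, minus strand), a protein disulfide isomerase, had means of 592.7 and 682.8 and a log2 fold change of 0.21 (SE 0.12, DESeq2 adjusted p = 0.323). Herpud1 (ENSMUSG00000031770.16, chr8:94386438-94395377, plus strand), which helps bring misfolded proteins to the degradation complex, had the highest deposited point estimate of the 10, with means of 254.4 and 318.2 and a log2 fold change of 0.32 (SE 0.25, 95% interval -0.17 to 0.80, DESeq2 adjusted p = 0.477). Its interval was also the widest of the 10, and the difference did not pass the test. With the trend in GC content and length removed the Herpud1 estimate was 0.12, and that of Pdia4, at 0.16, was the highest. An antisense gene, Gm15890, overlaps Herpud1.

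Ddit3 (ENSMUSG00000025408.15, chr10:127290774-127296288, plus strand), the transcription factor CHOP that acts downstream of PERK and ATF4, had a deposited mean of 170.8 in room air and 195.8 after smoke. The log2 fold change was 0.18 (SE 0.17, 95% interval -0.15 to 0.51, DESeq2 adjusted p = 0.569). The annotation holds a second gene named Ddit3 that overlaps it on the same strand, and Mars and Gm4189 overlap it on the opposite strand. How the authors assigned shared reads, and whether by strand, is not given in the sources used here.

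**Figure D2:**
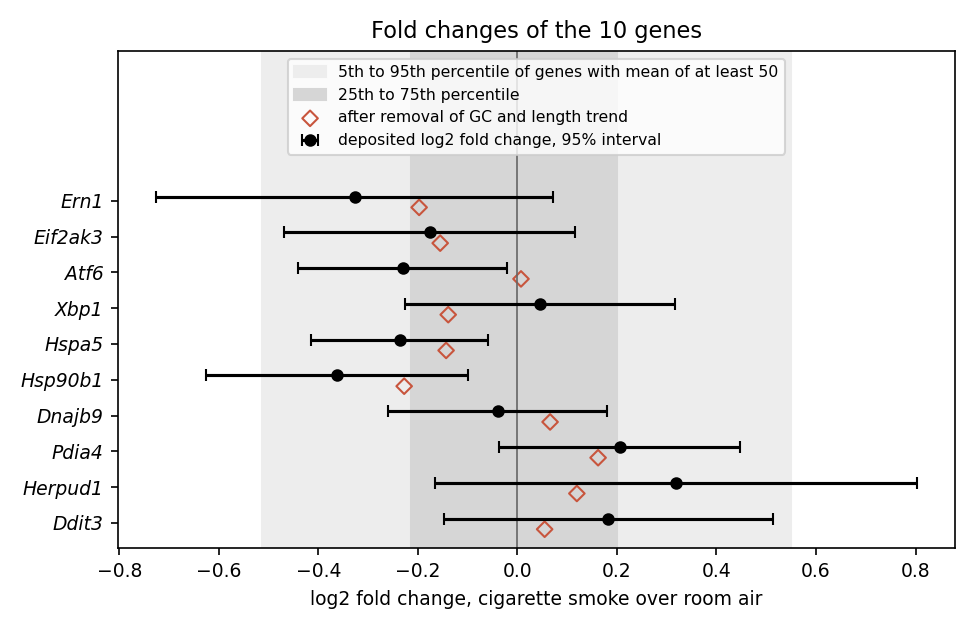
Deposited log2 fold change (cigarette smoke over room air) of each of the 10 genes with its 95% interval, beside the estimate after removal of the trend in GC content and transcript length. The intervals of Hsp90b1, Hspa5 and Atf6 do not reach 0, none of the 10 passed an adjusted p of 0.05, and the trend-removed marks of Xbp1, Atf6 and Dnajb9 fall on the other side of 0.

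Across the 12071 tested genes with both properties, the deposited fold changes rose with GC content (Spearman's rho 0.483) and fell with transcript length (rho -0.448), correlations across genes, which are not independent replicates. In these bulk cultures fewer cells of a type and less RNA per cell cannot be told apart. The labelled cell type was checked with fixed markers: 10 of 10 macrophage markers were listed, with summed means of 56304 in room air and 56826 after smoke in the authors' deposited table, led by Lyz2 (23168 and 24772). None of the 9 tested passed, and single markers went both ways, with Mrc1 at 3601 and 2196 (DESeq2 adjusted p = 0.0836) and Fcgr1 at 537 and 762 (DESeq2 adjusted p = 0.218). Neutrophil markers (4 of 10 listed) summed to 0.322 and 0.508, and dendritic cell markers (4 of 6 listed) to 1.66 and 1.02. Of the B and plasma cell markers, 8 of 10 were listed and summed to 233.2 and 322.3, nearly all from Sdc1 (75.03 and 178.7), Ighm (139.3 and 118.5) and Prdm1 (12.1 and 20.7). Of these Sdc1 rose (log2 fold change 1.27, DESeq2 adjusted p = 0.0239, and 0.137 with the trend in GC content and length removed), while Jchain, the antibody joining chain, was at 0.200 in room air and listed at 0 after smoke. Plasma cells have a constantly active IRE1 branch, and the part of these cells in the results was not tested. Stromal markers (6 of 6 listed) summed to 43.6 and 9.48, and the part of that difference in the results below was not tested. The erythroid list, with 1 of 5 markers listed, was at 0 and 0.508.

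Removal of the 26-base Xbp1 intron was measured in each library as percent retention in the authors' deposited JuncBASE table. Retention was 87.50%, 89.47% and 91.11% in the room air libraries, numbered 1 to 3, while the cigarette smoke libraries stood at 81.82%, 81.48% and 87.84%. The intron was thus absent from 12.5%, 10.53% and 8.89% of the informative reads in room air and from 18.18%, 18.52% and 12.16% after smoke. Cigarette smoke replicates 1 and 2 were the lowest in retention, and replicate 3 lay above room air replicate 1, so the groups overlapped.

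The group means were 89.4% ± 1.81 (SD, n = 3) in room air and 83.7% ± 3.58 (SD, n = 3) after smoke, a difference of -5.65 percentage points. On the scale of log2 odds of retention the difference was -0.65 (SE 0.47, 95% interval -1.77 to 0.46), with an adjusted p of 0.574 by limma over 10376 events. An exact two-sided permutation test over the libraries gave p = 0.2, where 3 against 3 cannot go below 0.1. The difference did not pass either test. Leaving out 1 library at a time gave differences from -4.53 to -7.71 points, and the groups no longer overlapped without room air replicate 1 (-6.58) or without cigarette smoke replicate 3 (-7.71).

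A lower mean retention after smoke was the rule among introns in this table. Of the 1992 introns measured in each of the 6 libraries, 92.5% had a lower mean after smoke, with a median difference of -3.84 points. Among the 165 that, like the Xbp1 intron, had a mean retention of at least 50%, 76.4% were lower, with a median of -2.56 points, and in 21.8% all 3 smoke values lay below all 3 room air values. The read coverage behind each percentage is not in the table used here, so no counting interval is given. Cigarette smoke replicate 1 had no value for 4169 of the 10376 events, against at most 398 in any other library, and without it the Xbp1 difference was -4.70 points.

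**Figure D3:**
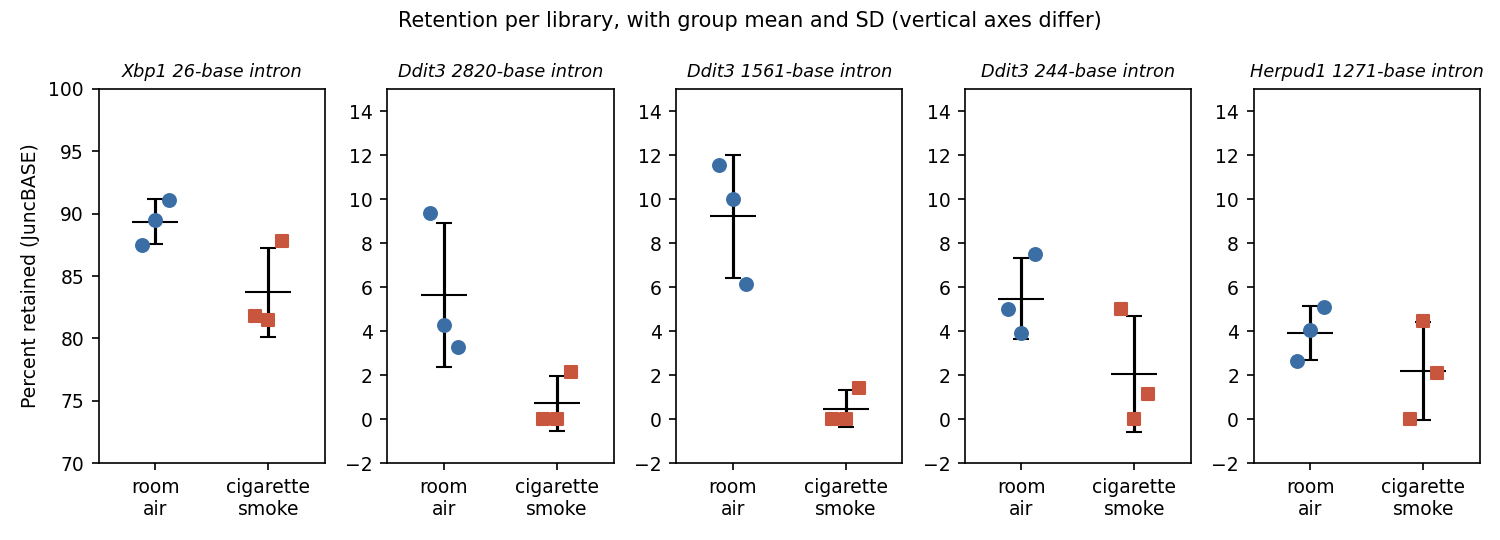
Percent retention in each library (points) and group mean (bars) for the 5 introns of the 10 genes in the JuncBASE table, room air against cigarette smoke, 3 libraries each. The Xbp1 intron sits between 81.48% and 91.11% with overlapping groups, while the 4 introns of Ddit3 and Herpud1 stay under 12%.

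The spliced-out stretch can be placed against the ordinary introns of Xbp1. The authors' deposited rMATS table held 3 of them, and in it 14.5% of 3887 introns had a false discovery rate under 0.05 and 13.8% did so with the higher level in sample set 1. Intron 3 (771 bases, chr11:5523468-5524238), directly upstream of the exon with the 26-base intron, was retained 4.6 percentage points more in set 1 (false discovery rate 0.00738). Intron 1 (722 bases, chr11:5521201-5521922) differed by 2.9 points in the same direction (0.0241), and intron 4 (300 bases, chr11:5524385-5524684) by 1.4 points (0.168). Which group is set 1 is not stated, so these differences have no direction with respect to smoke, and neither called one reached 10 points, as 4.43% of all did. In Hsp90b1, the other gene of the 10 with introns in that table, introns 16 and 17 differed by 0.2 and -0.4 points, with false discovery rates of 1.0 and 0.971.

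**Figure D4:**
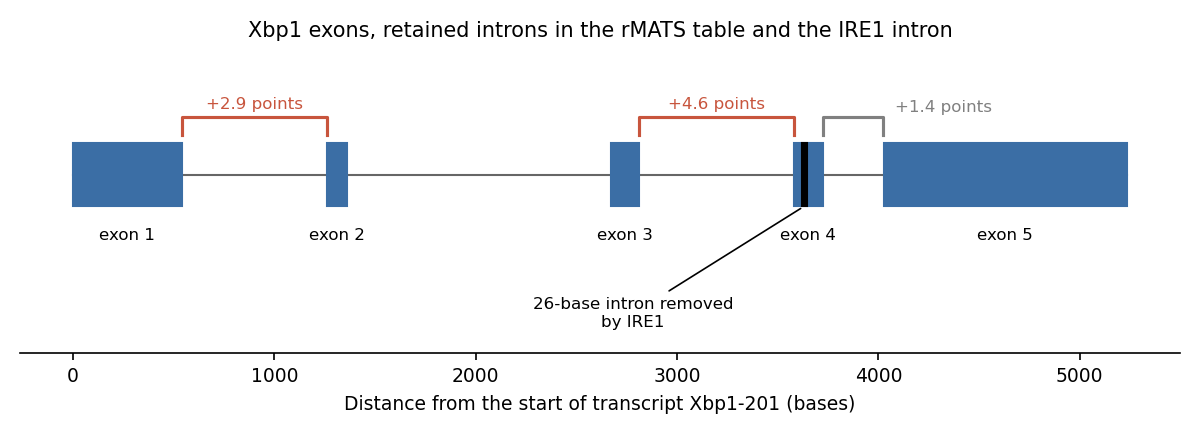
Map of transcript Xbp1-201 to scale, in bases from the gene's start, with its 5 exons, the 26-base intron inside exon 4 and the ordinary introns listed by rMATS. Introns 1 and 3 passed the authors' false discovery rate of 0.05 and intron 4 did not.

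The JuncBASE table held 13 events in 3 of the 10 genes: 6 in Ddit3, 4 in Herpud1 and 3 in Xbp1, of which 2 in Xbp1 start in the gene and reach past its annotated end. None of the 13 passed an adjusted p of 0.05 by limma, and 0.0% of all 10376 events did. At an unadjusted p under 0.05 there were 2 of the 13, both introns of Ddit3, against 10.8% of all events. The authors' own test in the deposited table gave 2 at an unadjusted p under 0.05, both also in Ddit3, against 4.15% of all events, and none after correction, as for all events (0.0% called). All 5 retained introns had a lower mean after smoke, as did 92.5% of all retained introns, and 2 of the 5 had every smoke value below every room air value, against 38.7% of all.

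The event with the lowest limma p was the second intron of Ddit3, 1561 bases in the 5′ untranslated region of Ddit3-201 (chr10:127293760-127295320). It was retained at 11.54%, 10.0% and 6.12% in the room air libraries and at 0%, 0% and 1.43% after smoke. The means were 9.22% ± 2.79 and 0.477% ± 0.826 (SD, n = 3 each), and the groups did not overlap. The difference was -3.02 log2 odds (SE 0.58, 95% interval -4.40 to -1.64) with a pseudocount of 1 percentage point. It was -1.49 with a pseudocount of 5 points, since with smoke values at 0% the size depends on that constant. The limma adjusted p was 0.162 and ranged from 0.0259 to 0.609 over the alternatives. The lowest value came without cigarette smoke replicate 3, when 10.4% of all events were called. The exact two-sided permutation p was 0.1, the smallest that 3 against 3 can give.

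The first intron of Ddit3 (2820 bases, chr10:127290892-127293711) had the same order of groups, with 9.38%, 4.29% and 3.28% in room air and 0%, 0% and 2.15% after smoke. Its limma adjusted p was 0.338 and the groups did not overlap. The third (244 bases, between coding exons) was at 5.0%, 3.9% and 7.5% against 5.0%, 0% and 1.14%, with overlapping groups and a limma adjusted p of 0.508. Each of these introns is spliced from the message that encodes CHOP, and spliced molecules made up at least 88.46% in each library for the first 2 of them.

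The 48-base exon between the first and second introns, was included at 88.46%, 83.33% and 92.00% in room air and at 82.61%, 79.17% and 83.53% after smoke. It lies in the 5′ untranslated region of Ddit3-201, while in Ddit3-204 the intron before it is annotated between coding exons. The groups overlapped, and the difference of -6.16 points had a limma adjusted p of 0.566. For an unannotated acceptor 318 bases upstream of the third exon, the inclusion level, which also counts reads over those 318 bases of the second intron, was 11.54%, 8.16% and 9.80% against 5.88%, 7.14% and 4.17%. All 3 smoke values lay below the room air values, as in 14.5% of such events, and the limma adjusted p was 0.536. Counted from junction reads alone, the same acceptor was at 0% in every library except cigarette smoke replicate 1, at 5.88%.

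Herpud1 has a pair of acceptors 3 bases apart in its coding sequence, and these are printed because the sequence shows what the choice adds. With the upstream acceptor (intron chr8:94389434-94389520) the message carries 3 more bases, in capitals, than with the downstream one (chr8:94389434-94389523), and each form is shown with 15 bases of exon on either side.
Herpud1-204: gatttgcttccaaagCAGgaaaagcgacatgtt
Herpud1-201: gatttgcttccaaaggaaaagcgacatgtt
The longer form made up 89.66%, 94.55% and 93.88% of junction reads in room air and 88.24%, 95.45% and 95.08% after smoke. The groups overlapped, with a limma adjusted p of 0.940. Counted with exon reads it was at 81.25%, 89.66% and 88.46% in room air, and after smoke it had no value in replicate 1, 90.91% in replicate 2 and 90.62% in replicate 3. Here the smoke values lay above every room air value, with a limma adjusted p of 0.666. Retention of Herpud1 intron 6 (1271 bases) was 2.63%, 4.05% and 5.08% against 0%, 4.44% and 2.11%, with a limma adjusted p of 0.616. For an unannotated donor within it, the inclusion level was 5.13%, 5.33% and 8.20% against 6.25%, 2.27% and 4.12% (limma adjusted p = 0.642). That level also counts reads over 947 bases of the intron, so it is not the use of the donor alone. The remaining Xbp1 events compared acceptors after exon 4, the farthest of them past the annotated end of the gene, and the annotated acceptor of exon 5 was used at 94.29% or more in each library.

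The wider pathway was read from 6 lists of 89 genes, the 10 included, of which 88 were listed and 87 tested. By the authors' deposited table, an adjusted p of 0.05 was passed by 6 of the 87, a share of 6.90% beside 7.69% of all genes. Of these 3 rose after smoke and 3 fell, where 4.15% of all genes rose and 3.53% fell. The lists were drawn up with earlier results of these data known. In the PERK, ATF4 and CHOP list 2 of 14 genes rose and none fell, with a median log2 fold change of 0.16 beside -0.003 for all genes, and of 0.05 with the trend in GC content and length removed. Cebpb, a transcription factor that partners CHOP, rose from a mean of 50.9 to 115.6 (log2 fold change 1.21, SE 0.34, DESeq2 adjusted p = 0.0117). Atf4, the central factor of this branch, rose from 661.8 to 890.7 (log2 fold change 0.42, SE 0.13, DESeq2 adjusted p = 0.0248).

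Including Ddit3, 12 of the 14 genes did not pass. Among them, Atf3, Ppp1r15a (GADD34, which reverses eIF2α phosphorylation) and Trib3 had log2 fold changes of 0.08, 0.09 and 0.67, the last from means of 21.7 and 35.2 with a DESeq2 adjusted p of 0.551. Of all 14 genes, 10 were above 0.

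In the list of sensors and their processing, 1 of 9 genes fell and none rose, with a median of -0.11. It was Mbtps2, the site-2 protease that releases ATF6 from the membrane, from a mean of 435.8 to 331.7 (deposited log2 fold change -0.38, SE 0.13, DESeq2 adjusted p = 0.0486). The other protease of that step, Mbtps1, had means of 521.9 and 487.6 and did not pass. Rtcb, the ligase that joins the Xbp1 exons after IRE1 has cut, had means of 397.0 and 414.4 and did not pass either.

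Of 24 ER chaperones and folding enzymes, 12 had fold changes above 0 and 12 below. Canx (calnexin, the membrane lectin chaperone) was the 1 that passed, falling from 3741 to 3063 (deposited log2 fold change -0.29, SE 0.08, DESeq2 adjusted p = 0.0102). Genes with opposite point estimates that did not pass included Manf (0.41, adjusted p = 0.0561 by DESeq2, and 0.0481 when adjusted only over genes with a mean of 50 or more) and P4hb (0.37, adjusted p = 0.0954 by DESeq2) on one side and Dnajc3 (-0.24, adjusted p = 0.0949 by DESeq2) on the other. The median was 0.06.

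In ER-associated degradation 1 of 16 tested genes fell and none rose, with a median of 0.05. It was Edem3, which trims mannose from misfolded glycoproteins, from 510.0 to 359.6 (deposited log2 fold change -0.50, SE 0.13, DESeq2 adjusted p = 0.0081). Among 19 translocon and secretory entry genes the 1 that passed was Ssr2, a subunit of the translocon-associated protein complex, which rose from 305.7 to 432.2 (log2 fold change 0.49, SE 0.15, DESeq2 adjusted p = 0.0183), with a list median of 0.03.

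Of 6 transcripts known from the literature to be cut by IRE1 itself, 5 were listed and none passed. Bloc1s1, the best-known of them, had means of 83.5 and 129.4 (log2 fold change 0.59, SE 0.23, DESeq2 adjusted p = 0.0923), and Hgsnat had a log2 fold change of -0.02. Sparc, Col6a1 and Pdgfrb had means under 11 in both groups, and they are genes of stromal cells, whose summed markers are given above. With the trend in GC content and length removed, none of the 6 called genes of the wider lists passed, so that their calls as risen or fallen hold for the deposited values alone. The estimates then were 0.67 for Cebpb, 0.17 for Atf4, 0.17 for Ssr2, -0.11 for Mbtps2, -0.09 for Canx and -0.24 for Edem3. After the removal 1 other gene passed: Ssr1, at 0.35 (adjusted p = 0.0147 from the deposited DESeq2 SE), whose deposited log2 fold change was 0.04.

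**Figure D5:**
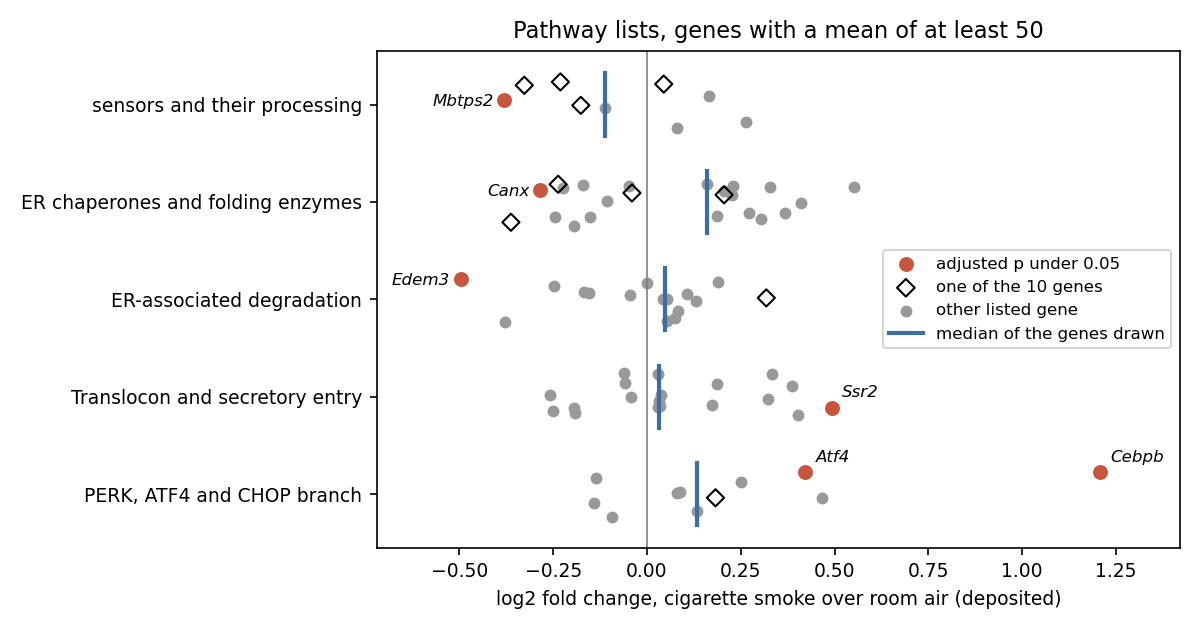
Deposited log2 fold change (cigarette smoke over room air) of every gene of 5 pathway lists whose mean reached 50 normalized counts, with the 10 genes as open diamonds, genes past an adjusted p of 0.05 filled and named, and the median of the genes drawn as a bar. The 10 genes lie between -0.36 and 0.32, and Cebpb lies apart at 1.21.

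Promoter sequences were searched because ATF6 and XBP1s act through short, well-described elements, and matched letters show which of the 10 genes carry them. RefSeq promoters (GRCm38.p6, 250 bases before to 50 after the start site) were found for 9 of the 10 genes, all but Atf6. Both strands were searched for the ER stress response element (ERSE: CCAAT, any 9 bases, then CCACG), for ERSE-II (ATTGG, any 1 base, then CCACG), for the XBP1 and ATF6 element TGACGTGG (UPRE) and for the ATF4 and CHOP element TGATGNAA (AARE). ERSE and ERSE-II share the letters CCACG. Matches are shown with 5 bases on each side and the fixed letters in capitals, each on the strand that reads as the motif does.
Hspa5 ERSE: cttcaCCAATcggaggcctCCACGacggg
Hsp90b1 ERSE, gene strand: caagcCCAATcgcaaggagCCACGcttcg
Hsp90b1 ERSE, other strand: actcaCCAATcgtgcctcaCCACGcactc
Herpud1 ERSE-II: cgctgATTGGgCCACGttgga
The Hspa5 match begins 65 bases before the RefSeq start site (chr2:34772025-34772043, within the gene's span in GENCODE), those of Hsp90b1 212 and 107 bases before it (chr10:86705638-86705656 and chr10:86705533-86705551), and that of Herpud1 52 bases before it (chr8:94386377-94386387). Of all 32851 promoters, 0.119% held the ERSE and 0.037% the ERSE-II. The genes and the elements are both well-known parts of the response, so these shares describe the letters and are no test of enrichment. No promoter of the 9 held the UPRE letters, which 0.676% of all promoters did. The AARE letters were found in 1, again Herpud1, against 3.97% of all. The genes with an ERSE, Hspa5 and Hsp90b1, had deposited log2 fold changes of -0.24 and -0.36, and Herpud1 with the ERSE-II had 0.32, so the values stood on both sides of 0, and none passed the test. A match is a description of letters, and no binding was measured.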

How the data were processed

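Directional libraries were made from total RNA, per the labels' protocols. Per the submitters' processing notes, the authors used STAR, DESeq2, SAMtools 1.9, bedtools 2.27.1 and mm10, with no role stated. Per the file headers, the signal columns of the authors' gene table are means of size-factor-normalized counts per group and over 24 libraries, and its log2 fold changes with their SE on the log2 scale, Wald score, raw p-values and adjusted ones were computed by the authors. The authors' JuncBASE output gives percent inclusion per library, with the difference of medians as another quantity of the authors. The authors' rMATS table gives p-values and a difference of set 1 minus set 2, and 6 columns of per-sample values were not used because the groups of the sets are not stated.

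The planned expression test needed values per library, so the authors' comparison is described instead. Inclusion levels p (percent) were converted to log2((p + 1)/(100 - p + 1)) and tested by limma 3.58.1 (R 4.3.3), adjusting over 10376 events by Benjamini-Hochberg. As an alternative, fold changes were corrected for GC content and log2 transcript length with weighted natural splines (4 degrees of freedom each, statsmodels 0.14.6). Both steps were tested on simulated data. There the limma step missed most changes of the size of the Xbp1 and Ddit3 intron differences, so an event that did not pass may still differ. Positions come from GENCODE M21 on GRCm38, and a second gene named Ddit3 was left out when events were placed. The members and lists were chosen with earlier results of these data known. The genes named are the 10, any list gene past the adjusted p of 0.05 with a mean of at least 50, and genes named by a role; genes cited without passing were chosen after their values were seen.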

Additional observations from a re-analysis of the deposited data

How the results depend on the processing

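The number of genes called over the whole table, 929, was 1547 at an adjusted p of 0.1, 153 with the trend in GC content and length removed, 354 with GC content alone, 353 with length alone and 902 over genes with a mean of 50 or more. The count among the 10 genes was 0 except at an adjusted p of 0.1, where it was 2 (Hsp90b1 and Hspa5). The wider lists had 14 called at 0.1, 7 over genes with a mean of 50 or more (Manf added) and 1 with the trend removed, against 6. Under that removal the log2 fold changes of Xbp1 (-0.14), Atf6 (0.0071) and Dnajb9 (0.066) changed sign. Of the 10376 JuncBASE events, 0 were called by limma, 5 on untransformed percentages, 23 over complete events and 0 to 1064 when 1 library was left out, the highest without cigarette smoke replicate 3. The events of the 10 genes had 0 to 1 called in that way, the 1 being the 1561-base Ddit3 intron at -3.45 (limma adjusted p = 0.0259). Leaving out single libraries gave log2 odds of -0.16 to 0.53 for the Herpud1 acceptor choice (-0.13 and -0.08 among them), of -0.19 to 1.23 for an unannotated Xbp1 acceptor after exon 4 and of -1.21 to 0.20 (0.06 among them) for the annotated one, so their signs changed. Mean retention over the 5 introns differed by -4.90 points, by -4.57 to -5.45 without 1 library, by -5.65 for the 1 intron retained at 10% or more and by -4.71 without the Xbp1 intron, the last an alternative chosen after seeing the data. Of the 2 Xbp1 introns called by rMATS, 0 reached 10 points. With the replicate block 0 of 10354 events were called. Deviations from the group means correlated at 0.0177, -0.0404 and -0.0888 between same-numbered libraries over 5933 events, and at -0.072 to 0.1271 between the others. With 3 libraries per group, this cannot show whether same-numbered libraries shared an exposure or culture batch. The causes of these changes were not tested. JuncBASE coverage minimums could not be applied, and the depth of each library is unknown here.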
